A study of Homo sapiens with 9 samples.

Results

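The 53 genes described here encode the human DNA replication machinery and its immediate regulators. They were taken by name, as a fixed list of origin licensing, helicase, polymerase, clamp loading, nucleotide supply and G1/S genes, by a rule that uses no expression value, although the list was proposed with earlier results of these data known. All 53 were among the 58395 Ensembl identifiers of the count tables and among the 16761 genes that passed the low-count filter, with at least 37 reads for each of them in each library. The list was divided by role into 13 groups of 2 to 6 genes.

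The study asked how the transcriptome responds to depletion of ZIP7 (SLC39A7), a transporter that moves zinc out of the endoplasmic reticulum into the cytosol. MDA-MB-231, an established human triple-negative breast cancer line, was reverse-transfected for 96 h with a nontargeting control siRNA (siNC), with ZIP7 siRNA_1 (siZIP7_1) or with ZIP7 siRNA_2 (siZIP7_2), in DMEM with serum and antibiotics, with no other treatment named. Each siRNA had 3 libraries, 9 in all. The paper describes the transfections for RNA-seq as done in triplicates, and the labels do not say whether the libraries came from separate cultures. The p-values thus measure the spread between these libraries, which may be technical. The number of reads assigned to genes ranged from 24153785 to 30454419 over the libraries. Levels are given as CPM, the count of a gene scaled to library size after edgeR's TMM scaling, and differences as log2 fold changes from edgeR's quasi-likelihood test, where the value after ± is the standard error (SE). A gene was called when its Benjamini-Hochberg adjusted p over all 16761 genes was under 0.05.

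A human cell copies its genome once per division. In late mitosis and G1, the origin recognition complex (ORC), CDC6 and CDT1 load the MCM2 to MCM7 helicase onto DNA as an inactive ring, a step called licensing. At the start of S phase, cyclin E with its kinase partner and the DDK kinase switch the ring on by joining CDC45 and GINS to it. Polymerase alpha-primase then lays down primers, the RFC clamp loader opens the PCNA ring around DNA, polymerases epsilon and delta extend the strands, RPA coats single-stranded DNA, FEN1 and LIG1 join Okazaki fragments, and ribonucleotide reductase, thymidylate synthase and thymidine kinase supply deoxynucleotides. Many of these genes are transcribed in bursts at the G1/S border by E2F transcription factors, which the retinoblastoma protein holds in check, and cancer cells that divide fast keep them high.

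SLC39A7 was first examined in each library. SLC39A7 was at 321, 343 and 322 CPM with siNC, at 35.4, 32.9 and 38.6 CPM with siZIP7_1 and at 20.5, 19.5 and 17.6 CPM with siZIP7_2. This left 10.9% of the siNC level with siZIP7_1 (log2 fold change -3.2 ± 0.058, adjusted p = 7.38e-27, edgeR) and 5.84% with siZIP7_2 (log2 fold change -4.1 ± 0.063, adjusted p = 1.16e-28, edgeR). No siZIP7 library overlapped a siNC library. The cell line label was checked on marker genes. VIM lay between 5333 and 5688 CPM with siNC, CD44 between 787 and 861 CPM, and KRT8 and KRT18 between 201 and 258 CPM. ESR1 and CDH1 were under 1 CPM with siNC, EPCAM was under 7 CPM, ERBB2 lay between 71.7 and 75.6 CPM, and PGR had no read in the siNC libraries, where 3 reads would be 0.107 to 0.129 CPM. These markers also moved with the siRNAs. VIM lay between 2618 and 2808 CPM with siZIP7_1 and between 2816 and 2937 CPM with siZIP7_2 (log2 fold changes -1.04 and -0.93), whereas CD44 fell with siZIP7_1 (-0.81) and rose with siZIP7_2 (1.14). For the epithelial genes KRT8, EPCAM and CDH1 the log2 fold changes were 1.29, 0.56 and 3.14 with siZIP7_1 and -0.15, -0.57 and 1.07 with siZIP7_2. The fall of KRT8 with siZIP7_2 was not called with upper-quartile scaling (-0.04) or with at least 10 counts in every library (-0.07). The summed level of VIM, CD44, KRT8 and KRT18 was 6558 to 7011 CPM over the siNC libraries, 3913 to 4191 CPM over siZIP7_1 and 5004 to 5140.3 CPM over siZIP7_2. Of the blood cell markers, CD3E was at or under 0.043 CPM in every library and PTPRC was at most 1.02 CPM. CD14 ranged from 1.29 to 2.4 CPM in siNC libraries, from 0.515 to 0.583 CPM in siZIP7_1 libraries and from 8.72 to 11.9 CPM in siZIP7_2 libraries. The share of reads that fell on no annotated gene was 7.81% ± 0.429 with siNC, 8.95% ± 0.995 with siZIP7_1 and 10.8% ± 0.749 with siZIP7_2 (SD, n = 3 each). Their part in the results was not tested.

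The replication factors were lower with both siRNAs, and lower still with siZIP7_2. With siZIP7_1, 49 of the 53 were called lower and none higher, where 35.9% of all genes tested were called lower, 34.8% higher and 70.7% in either direction. ORC2, ORC4, GMNN and E2F2 were not called. With siZIP7_2, 51 were called lower, where 39.3% of all genes were, 1 was called higher (RFC1), where 38.5% were, and PRIM2 was not called. In either direction this was 52 of 53, beside 77.8% of all genes tested. In all, 47 members were called lower with each siRNA, against 20.8% of all genes tested. The siRNA comparisons share their siNC libraries and are not independent of each other.

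In size, the median log2 fold change of the members was -0.72 with siZIP7_1 and -1.33 with siZIP7_2, beside -0.01 and 0.00 over all genes. The quartiles of the members were -0.94 and -0.48 for siZIP7_1 and -1.77 and -0.91 for siZIP7_2, whereas those of all genes were -0.47 and 0.49, then -0.56 and 0.62. Summed over the 53 genes, siNC libraries held 5811 ± 112 CPM, siZIP7_1 libraries 3500.4 ± 143 CPM and siZIP7_2 libraries 2620.3 ± 115 CPM (SD, n = 3 each), so that the siRNA groups were at 60.2% and 45.1% of siNC. Every siZIP7_1 library was below every siNC library in 48 members (36.5% of all genes tested) and every siZIP7_2 library in 51 (39.9% of all genes tested). With siZIP7_1, 9 members were under 50% of siNC and none under 25%. With siZIP7_2, 34 were under 50% and 8 were under 25%, these being E2F2, CCNE2, PRIM1, CCNE1, RFC3, GINS4, GINS1 and RPA3. The share of all genes under these 2 levels was not counted. Below the lower quartile of all genes, where 25% of them lie, were 40 members with siZIP7_1 and 46 with siZIP7_2. In RNA from bulk cultures, a smaller share of cells in S phase and less of these RNAs in each cell cannot be told apart.

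**Figure D1:**
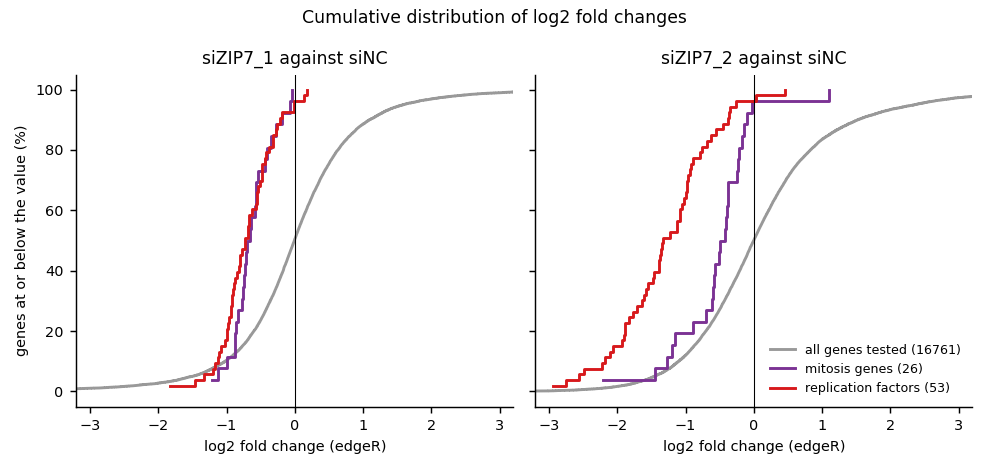
Cumulative percent of genes (y axis) at or below each log2 fold change against siNC (x axis), for all 16761 genes tested, 26 mitosis genes and the 53 replication factors, with siZIP7_1 on the left and siZIP7_2 on the right. The replication factors lie to the left of all genes in both panels, with medians of -0.72 and -1.33, and the mitosis genes lie beside them with siZIP7_1 (median -0.68) but closer to all genes with siZIP7_2 (median -0.46).

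The members are dispersed over 19 chromosomes, and what their start sites share was examined in promoter sequence that the choice of members did not use. RefSeq windows of 300 bases on GRCh38.p14, from 250 bases before to 50 after each transcript start, were found for 46 of the 53 members (58 windows, with several for 10 members), and no window was printed or searched for the other 7 (MCM4, MCM5, GINS4, POLD3, RPA2, RPA3 and CCNE2). E2F proteins bind words close to TTTCCCGC, TTTCGCGC, TTTGCCGC and TTTGGCGC. On either strand, 1 or more of these 4 words stood in a window of 24 of the 46 members, 52.2%, beside 6.40% of the 11157 tested genes that have a window and 3.99% of all 27305 genes of the table. CCAAT, the word bound by the factor NF-Y, was in windows of 27 members, 58.7% beside 43.0% of tested genes, and GGGCGG, the word bound by Sp1, in 35, 76.1% beside 75%. Of the 32 E2F words in member windows, 26 began between 100 bases before and 49 bases after the start. Of these 32 words, 6 overlapped another E2F word, 3 overlapped a GGGCGG and 1 a CCAAT. A match is a description of the letters and not evidence of binding.

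Shown here are the windows of 5 members with a word and that of RFC1, the member that was higher with siZIP7_2. They are written 5′ to 3′ on the strand of the gene, with E2F words in capitals.
PCNA, chr20:5126573-5126872 (minus strand): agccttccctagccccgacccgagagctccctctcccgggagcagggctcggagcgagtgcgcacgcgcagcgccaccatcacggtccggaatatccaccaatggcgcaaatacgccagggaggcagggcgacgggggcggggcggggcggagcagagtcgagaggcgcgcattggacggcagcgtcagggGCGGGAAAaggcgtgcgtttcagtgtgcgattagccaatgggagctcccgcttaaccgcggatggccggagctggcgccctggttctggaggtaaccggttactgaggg
MCM3, chr6:52284693-52284992 (minus strand): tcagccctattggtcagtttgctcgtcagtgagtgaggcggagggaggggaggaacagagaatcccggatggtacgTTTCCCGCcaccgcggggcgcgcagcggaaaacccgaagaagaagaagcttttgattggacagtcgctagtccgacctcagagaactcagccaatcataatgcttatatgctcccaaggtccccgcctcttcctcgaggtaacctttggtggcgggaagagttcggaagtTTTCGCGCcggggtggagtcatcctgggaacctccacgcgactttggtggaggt
E2F1, chr20:33686336-33686635 (minus strand): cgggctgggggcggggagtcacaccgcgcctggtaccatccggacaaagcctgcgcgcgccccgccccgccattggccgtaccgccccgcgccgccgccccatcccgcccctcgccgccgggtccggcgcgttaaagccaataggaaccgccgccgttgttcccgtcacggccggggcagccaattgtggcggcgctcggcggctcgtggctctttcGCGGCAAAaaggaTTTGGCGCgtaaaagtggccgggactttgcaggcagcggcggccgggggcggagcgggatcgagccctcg
RFC3, chr13:33817899-33818198 (plus strand): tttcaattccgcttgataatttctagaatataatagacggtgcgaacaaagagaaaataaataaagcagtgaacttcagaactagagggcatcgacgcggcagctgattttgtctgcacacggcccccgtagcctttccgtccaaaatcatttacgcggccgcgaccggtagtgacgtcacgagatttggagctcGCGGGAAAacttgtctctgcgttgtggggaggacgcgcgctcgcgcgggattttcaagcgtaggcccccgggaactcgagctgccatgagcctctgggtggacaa
CDC6, chr17:40287629-40287928 (plus strand): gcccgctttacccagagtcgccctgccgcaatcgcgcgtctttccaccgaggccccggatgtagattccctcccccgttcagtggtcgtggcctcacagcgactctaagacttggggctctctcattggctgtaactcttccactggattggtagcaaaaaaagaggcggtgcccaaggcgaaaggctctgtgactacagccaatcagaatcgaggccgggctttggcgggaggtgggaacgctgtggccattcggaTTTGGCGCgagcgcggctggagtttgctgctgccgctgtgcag
RFC1, chr4:39366313-39366612 (minus strand): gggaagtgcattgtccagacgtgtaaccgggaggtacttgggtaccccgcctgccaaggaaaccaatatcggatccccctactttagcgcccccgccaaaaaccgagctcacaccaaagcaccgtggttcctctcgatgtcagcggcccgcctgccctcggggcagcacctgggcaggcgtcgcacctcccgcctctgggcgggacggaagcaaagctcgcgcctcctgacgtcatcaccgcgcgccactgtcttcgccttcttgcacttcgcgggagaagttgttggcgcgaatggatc

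PCNA has 1 word in the orientation GCGGGAAA, 59 bases before the start, and RFC3 has the same 55 bases before. In MCM3, TTTCGCGC begins 4 bases before the start and TTTCCCGC 174 bases before. The E2F1 window holds a GCGGCAAA and a TTTGGCGC 33 and 20 bases before its own start, and CDC6 holds TTTGGCGC 7 bases after. None of the 4 words was found in the RFC1 window. MCM6 had the most, 4 words that overlap in pairs. The 24 members with a word had a median log2 fold change of -0.75 with siZIP7_1 and -1.47 with siZIP7_2, and the 22 without had -0.71 and -1.01. Over tested genes the same medians were -0.11 and -0.23 for the 714 with a word and -0.03 and -0.06 for the 10443 without. No test was made of these differences.

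**Figure D2:**
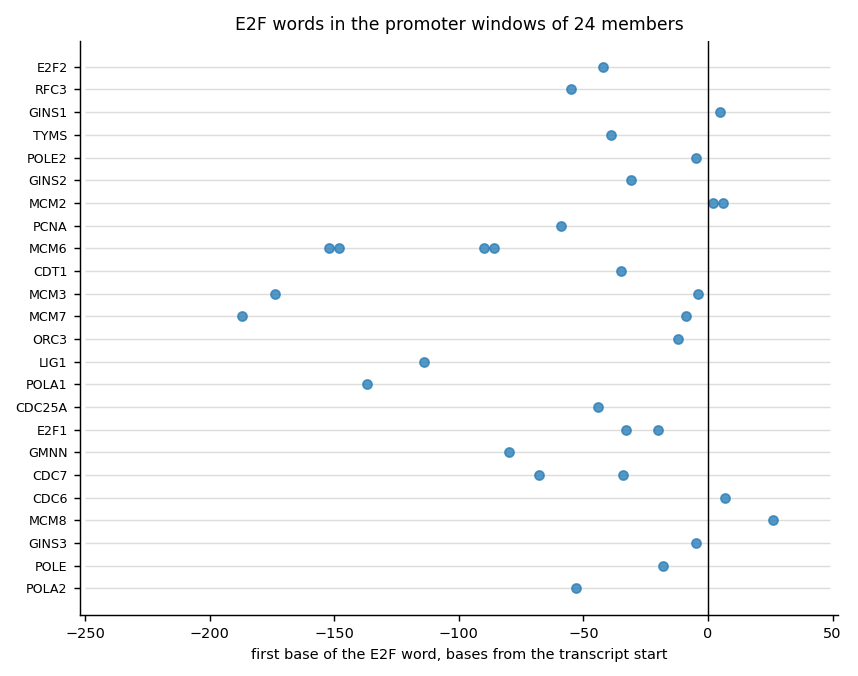
First base of each E2F word (points) in bases from the transcript start (x axis, 0 at the start) for the 24 members with a word, ordered by log2 fold change with siZIP7_2 from E2F2 at the top to POLA2 at the bottom. Of the 32 words, 26 begin within the last 100 bases before the start or after it, and pairs of points 4 bases apart in MCM2 and MCM6 are overlapping words.

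The origin recognition complex marks the sites where replication may begin, and its 6 subunits did not move as a block. ORC3 had the largest fall of the complex with each siRNA. ORC3 was at 44.1, 44 and 45.2 CPM with siNC, at 16.3, 15.7 and 16.3 CPM with siZIP7_1 and at 15.2, 17 and 16.2 CPM with siZIP7_2. The groups treated with the siRNAs overlapped each other and neither overlapped siNC. The log2 fold change was -1.47 ± 0.063 with siZIP7_1 (adjusted p = 1.88e-18, edgeR) and -1.46 ± 0.063 with siZIP7_2 (adjusted p = 2.38e-18, edgeR), and the interval of their difference was -0.13 to 0.15. ORC3 lies on chromosome 6 from 87590067 to 87667453 (plus strand). ORC2 and ORC4 were not called with siZIP7_1 (-0.01 and 0.13) but fell with siZIP7_2, by 0.98 and 0.36 on the log2 scale. ORC4 was called higher with siZIP7_1 with upper-quartile scaling (0.15), with at least 10 counts in every library (0.15), without siNC replicate 3 (0.17) and without siZIP7_1 replicate 3 (0.19). ORC1, the largest subunit, fell by 0.82 and 1.33, ORC5 by 0.74 and 1.08, and ORC6 by 0.89 and 0.995. Summed over the complex, siNC held 222 ± 2.06 CPM, siZIP7_1 146 ± 7.24 CPM and siZIP7_2 108 ± 3.66 CPM (SD, n = 3 each).

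Licensing is completed by CDC6 and CDT1, which load the helicase, and blocked by geminin (GMNN), which binds CDT1 after S phase has begun. CDC6 was at 169.7, 169 and 167 CPM with siNC, at 80.6, 88.7 and 83.8 CPM with siZIP7_1 and at 102, 113 and 111 CPM with siZIP7_2. All siZIP7_2 libraries were above all siZIP7_1 libraries, so that CDC6 was among the few members that fell more with siZIP7_1 (-0.999 ± 0.050) than with siZIP7_2 (-0.63 ± 0.049). CDT1 was at 103, 112 and 101 CPM with siNC, at 65.7, 65.9 and 64.5 CPM with siZIP7_1 and at 29.8, 38.1 and 36.2 CPM with siZIP7_2. CDT1 showed the opposite order, with log2 fold changes of -0.69 ± 0.061 and -1.6 ± 0.064. GMNN was not called with siZIP7_1 (-0.02 ± 0.054, adjusted p = 0.805, edgeR) and fell to 46% of siNC with siZIP7_2. CDC6 and CDT1 lie on chromosome 17 from 40287633 to 40304657 (plus strand) and on chromosome 16 from 88803213 to 88809258 (plus strand).

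The MCM2 to MCM7 ring is the replicative helicase, and each of its 6 genes fell with each siRNA. Summed over the ring, siNC held 1512 ± 41.2 CPM, siZIP7_1 779 ± 25.4 CPM and siZIP7_2 576 ± 29 CPM (SD, n = 3 each), 51.5% and 38.1% of siNC. With siZIP7_1 the 6 subunits were left at between 46.3% (MCM4) and 65.0% (MCM6) of siNC, and with siZIP7_2 at between 27.2% (MCM2) and 59.2% (MCM5). MCM2 was at 169, 174 and 158 CPM with siNC, at 97.1, 98.3 and 92 CPM with siZIP7_1 and at 41.8, 46.5 and 47.4 CPM with siZIP7_2. MCM3 was at 439, 459.7 and 432 CPM with siNC, at 229, 247 and 227 CPM with siZIP7_1 and at 142, 159 and 154 CPM with siZIP7_2. In both genes the 3 groups were separate, and each siZIP7_2 library was the lower. The log2 fold changes of MCM2 were -0.80 ± 0.051 and -1.88 ± 0.054, and those of MCM3 were -0.92 ± 0.050 and -1.55 ± 0.051.

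MCM4 gave a different picture. MCM4 was at 258, 258 and 258 CPM with siNC, at 117, 126 and 115 CPM with siZIP7_1 and at 109.7, 127 and 129 CPM with siZIP7_2. Its siZIP7_1 and siZIP7_2 libraries overlapped, and the interval of the difference between the siRNAs was -0.08 to 0.14, although upper-quartile scaling called MCM4 higher with siZIP7_2 (0.11). MCM5 was at 138, 141 and 129.8 CPM with siNC, at 72.9, 72 and 70.6 CPM with siZIP7_1 and at 78.1, 82.3 and 81 CPM with siZIP7_2. MCM5 was higher with siZIP7_2 than with siZIP7_1 by 0.17 ± 0.048, with no overlap, although both groups were below siNC, and this call was lost without a low-count filter (0.12). MCM6 was at 105, 102 and 104 CPM with siNC, at 63.9, 72.2 and 66.4 CPM with siZIP7_1 and at 32.3, 34.6 and 32.8 CPM with siZIP7_2. MCM7 was at 395, 423 and 394 CPM with siNC, at 189, 193 and 189.6 CPM with siZIP7_1 and at 140.2, 150.1 and 143 CPM with siZIP7_2. MCM6 and MCM7 followed MCM2 and MCM3, with siZIP7_2 lowest, at log2 fold changes of -0.62 and -1.64 and of -1.08 and -1.48. MCM7 and its neighbour AP4M1 share 8.94% of the exonic length of MCM7, and 23.6% of that of MCM2 is overlapped by a gene on the opposite strand. The strand setting of the counting is not given in the sources used here, so how reads on such shared stretches were assigned is not known. Reads that HTSeq marked as ambiguous were left out, which can lower the counts of such genes. MCM2 lies on chromosome 3 from 127598223 to 127622436 (plus strand), MCM3 on chromosome 6 from 52264009 to 52284881 (minus strand), MCM5 on chromosome 22 from 35400063 to 35425430 (plus strand), MCM6 on chromosome 2 from 135839626 to 135876426 (minus strand) and MCM7 on chromosome 7 from 100092728 to 100101940 (minus strand), and MCM4 is on chromosome 8.

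Levels of different genes were compared per kilobase of exonic length (RPKM). With siNC, PCNA at 125 ± 4.0 RPKM and TK1 at 124 ± 7.43 RPKM had the highest means of the 53 members. MCM3 at 122 ± 3.99 RPKM and TYMS at 120 ± 3.91 RPKM followed (SD, n = 3 each). The means of PCNA, MCM3 and TYMS all lay within 1 SD of that of TK1, so their order is not set beyond the spread. The lowest 2 were ORC4 at 3.25 ± 0.131 RPKM and E2F2 at 2.81 ± 0.0868 RPKM, with a median of 18.3 RPKM over the members. Although the 6 MCM proteins act as one ring, their RNA levels per length differed, in the order MCM3, MCM7, MCM4, MCM2, MCM6 and MCM5, from 122 to 18.5 RPKM. With siZIP7_2 MCM3 and MCM7 were still first (41.4 and 33.0 RPKM), but MCM2 and MCM6 had dropped below MCM5, at 9.23 ± 0.610 and 8.07 ± 0.294 RPKM beside 11.0 ± 0.291 RPKM (SD, n = 3 each). In GINS, GINS3 was the lowest subunit with siNC (5.2 RPKM) and with siZIP7_1 (1.47 RPKM) and the second highest with siZIP7_2 (3.79 RPKM). In RFC, RFC1 went from the lowest with siNC (15.4 RPKM) to the highest with siZIP7_2 (21.1 RPKM). The exonic length joins all annotated transcripts of a gene, so a level per length is too low where long transcripts are not used. Reads marked ambiguous were left out, so a level can also be too low where exons of another gene overlap. Such overlap covers 23.6% of the exonic length of MCM2 and 46.6% of that of TYMS, but 0% of that of MCM5, PCNA and TK1. The places of MCM2 and TYMS in these orders are therefore not certain.

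**Figure D3:**
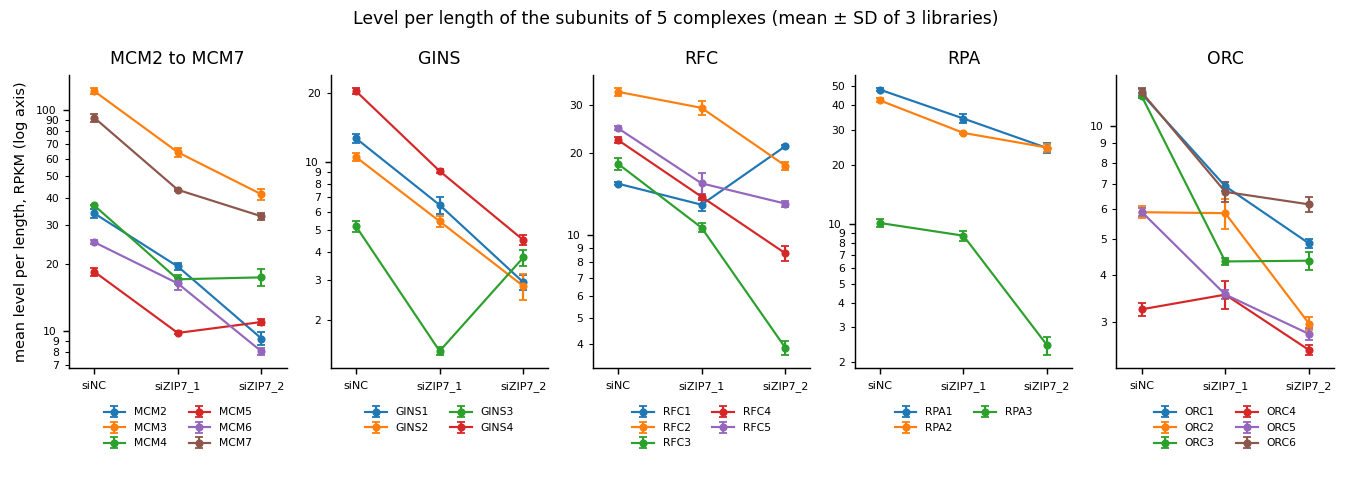
Mean level per length in RPKM (y axis, logarithmic) with each siRNA (x axis) for the subunits of MCM2 to MCM7, GINS, RFC, RPA and ORC, with bars of ± 1 SD over 3 libraries. GINS3 and RFC1 cross their partners, GINS3 from lowest with siZIP7_1 (1.47 RPKM) to second with siZIP7_2 (3.79 RPKM) and RFC1 from lowest with siNC (15.4 RPKM) to highest with siZIP7_2 (21.1 RPKM).

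Of the related proteins MCM10, which helps to start the helicase, and MCM8, which acts in recombination at forks, MCM10 fell more. MCM10 was at 91.7, 95 and 88.6 CPM with siNC, at 39.7, 41.8 and 37.9 CPM with siZIP7_1 and at 22.4, 27.6 and 27.1 CPM with siZIP7_2. The groups were separate, with log2 fold changes of -1.2 ± 0.061 and -1.83 ± 0.064. MCM8 fell to 49% of siNC with siZIP7_1 and to 67.9% with siZIP7_2, the reverse order.

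CDC45 and the 4 GINS proteins complete the active helicase, and their summed CPM was reduced with siZIP7_2 to 29.3% of siNC, the lowest of the 13 role groups by this sum (79.5 ± 3.76 against 271 ± 5.33 CPM, SD, n = 3 each), and with siZIP7_1 to 46.0%. By the median log2 fold change with siZIP7_2 the G1/S regulators were lower (-2.49) than CDC45 and GINS (-1.88). GINS4 was at 110.3, 116 and 109 CPM with siNC, at 49.1, 51 and 49.3 CPM with siZIP7_1 and at 25.4, 25.5 and 23.3 CPM with siZIP7_2. The log2 fold change of GINS4 was -1.17 ± 0.050 with siZIP7_1 and -2.18 ± 0.054 with siZIP7_2, and 23.6% of its exonic length is overlapped by a gene on the opposite strand. GINS1, GINS2 and CDC45 had the same order of groups, falling by 0.98, 0.94 and 0.997 with siZIP7_1 and by 2.1, 1.88 and 1.71 with siZIP7_2. GINS3 went the other way. GINS3 was at 28.3, 25.6 and 25.7 CPM with siNC, at 7.5, 7.76 and 7.18 CPM with siZIP7_1 and at 17.8, 20.9 and 19.4 CPM with siZIP7_2. Its siZIP7_1 libraries were far below its siZIP7_2 libraries, and both below siNC. The log2 fold changes were -1.83 ± 0.081 and -0.46 ± 0.072, and the difference between the siRNAs, 1.37 ± 0.083 (adjusted p = 4.29e-15, edgeR), was the largest of the members in that direction. GINS3 lies on chromosome 16 from 58295080 to 58406144 (plus strand), and 10.9% of its exonic length is overlapped by a gene on the opposite strand with about 1 CPM.

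The DDK kinase, CDC7 with its activator DBF4, phosphorylates the loaded helicase. CDC7 was at 56, 54.5 and 54.9 CPM with siNC, at 39.6, 43.4 and 36 CPM with siZIP7_1 and at 27.9, 28 and 29.2 CPM with siZIP7_2. CDC7 fell by 0.48 with siZIP7_1 and by 0.96 with siZIP7_2, with separate groups. DBF4 fell by 0.37 and 0.35, with overlapping siZIP7 groups.

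Polymerase alpha-primase makes the short primers from which both strands are extended, and its subunits parted with siZIP7_2. PRIM1 was at 25.6, 24.7 and 28.1 CPM with siNC, at 12.8, 16.1 and 13 CPM with siZIP7_1 and at 4.77, 5.00 and 3.5 CPM with siZIP7_2. PRIM1, the catalytic primase subunit, was left at 53.3% of siNC with siZIP7_1 (log2 fold change -0.91 ± 0.090) and at 17% with siZIP7_2 (log2 fold change -2.55 ± 0.11, adjusted p = 1.19e-18, edgeR). It lies on chromosome 12 from 56731596 to 56752373 (minus strand), and 21.6% of its exonic length is overlapped by a gene on the same strand. Its partner PRIM2 fell slightly with siZIP7_1 (-0.32 ± 0.074) and was not called with siZIP7_2 (0.03 ± 0.073, interval -0.11 to 0.18). POLA1, the polymerase subunit, fell by 0.66 and 1.38. POLA2 fell by 0.72 and 0.26, less with siZIP7_2, and a gene on the same strand overlaps 35.1% of its exonic length.

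Polymerase delta extends the lagging strand and polymerase epsilon the leading strand. POLE2 was at 26.1, 26.3 and 27.9 CPM with siNC, at 14.3, 15.7 and 14.5 CPM with siZIP7_1 and at 7.26, 7.44 and 6.81 CPM with siZIP7_2. POLD2 was at 157, 166 and 149 CPM with siNC, at 82.4, 90.6 and 83.9 CPM with siZIP7_1 and at 78.9, 83.2 and 84.9 CPM with siZIP7_2. POLE2, the second subunit of polymerase epsilon, was lowest with siZIP7_2 in each library (-0.85 ± 0.070 and -1.9 ± 0.078), while the POLD2 libraries of the siRNAs overlapped (-0.88 ± 0.051 and -0.93 ± 0.052, interval of the difference -0.16 to 0.05). POLE, the catalytic subunit of epsilon, fell least, by 0.43 and 0.38. POLD1 fell by 0.81 and 1.05, and POLD3 by 0.54 and 1.57.

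PCNA is the ring that tethers the polymerases, and its RNA separated the siRNAs sharply. PCNA was at 177, 188 and 187 CPM with siNC, at 146, 152 and 145 CPM with siZIP7_1 and at 49.9, 58.4 and 53.6 CPM with siZIP7_2. The 3 groups did not overlap. PCNA fell by 0.32 with siZIP7_1 (SE 0.050, adjusted p = 2.11e-06, edgeR) and by 1.77 with siZIP7_2 (SE 0.053, adjusted p = 5.55e-22, edgeR), a difference of -1.45 ± 0.053. It lies on chromosome 20 from 5114953 to 5126626 (minus strand). RFC3 had the same order of groups. RFC3 was at 49.4, 54 and 53.9 CPM with siNC, at 30.7, 31.8 and 29.4 CPM with siZIP7_1 and at 11, 11.9 and 10.6 CPM with siZIP7_2. The groups were separate, with log2 fold changes of -0.78 ± 0.059 and -2.23 ± 0.068. RFC3 lies on chromosome 13 from 33818049 to 33966558 (plus strand).

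RFC1, the large subunit of the clamp loader, was the one of the 53 members called in opposite directions by the siRNAs, beside 18.7% of all genes tested (3140 of 16761). RFC1 was at 104, 102 and 104 CPM with siNC, at 84.9, 92.2 and 83.5 CPM with siZIP7_1 and at 144, 140.2 and 141 CPM with siZIP7_2. The siZIP7_1 libraries were all below siNC and the siZIP7_2 libraries all above. The log2 fold change was -0.26 ± 0.048 with siZIP7_1 (adjusted p = 2.61e-05, edgeR) and 0.45 ± 0.047 with siZIP7_2 (adjusted p = 9e-10, edgeR). RFC1 lies on chromosome 4 from 39287456 to 39366375 (minus strand). The small subunits RFC2, RFC4 and RFC5 fell by 0.19, 0.69 and 0.67 with siZIP7_1 and by 0.89, 1.37 and 0.91 with siZIP7_2. WSB2, on the opposite strand, overlaps 10.6% of the exonic length of RFC5 and was at 242, 126 and 175 CPM on average with siNC, siZIP7_1 and siZIP7_2. Across the 5 subunits, the siZIP7_2 level ranged from 21.3% of siNC (RFC3) to 137% (RFC1), the widest range of the 13 role groups.

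**Figure D4:**
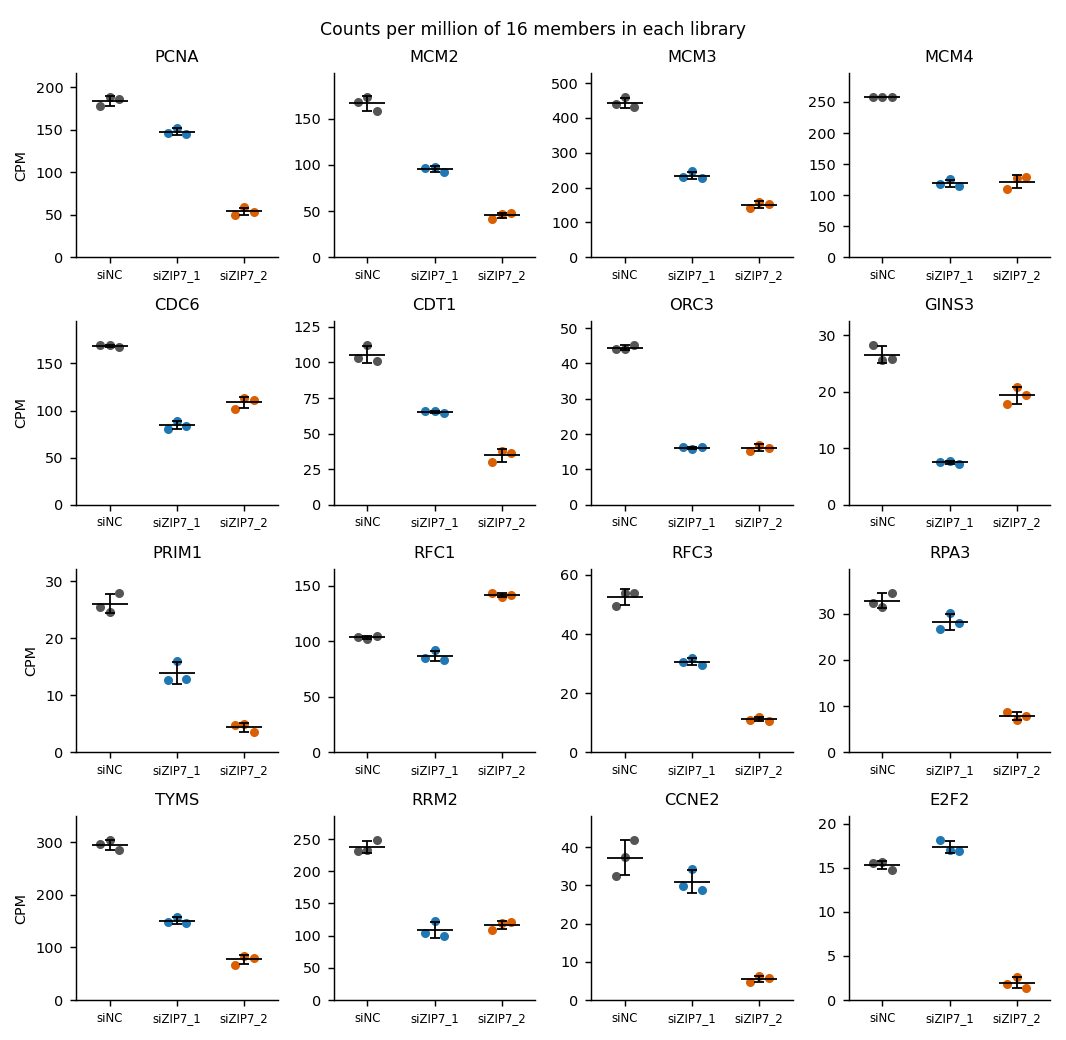
CPM (y axis, from 0) of 16 members in each library (points), with the mean and ± 1 SD over 3 libraries (bars), for siNC, siZIP7_1 and siZIP7_2 (x axis). Most panels step down from siNC to siZIP7_1 to siZIP7_2, as PCNA does; in ORC3, MCM4 and RRM2 the siZIP7 groups overlap, CDC6 and GINS3 are lowest with siZIP7_1, and RFC1 is highest with siZIP7_2.

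Okazaki fragments are trimmed by the nuclease FEN1 and sealed by the ligase LIG1. FEN1 was at 212, 223 and 205 CPM with siNC, at 139.6, 151 and 140.2 CPM with siZIP7_1 and at 125, 135 and 138 CPM with siZIP7_2. LIG1 was at 130.4, 133 and 122 CPM with siNC, at 87.5, 92.2 and 90.0 CPM with siZIP7_1 and at 47.2, 51.5 and 48.8 CPM with siZIP7_2. Both genes fell with each siRNA and with no overlap with siNC, FEN1 by 0.57 and 0.68 and LIG1 by 0.52 and 1.39. The difference between the siRNAs was -0.87 ± 0.052 for LIG1 and -0.12 ± 0.050 for FEN1, and the latter (adjusted p = 0.0374, edgeR) was lost with DESeq2, with either other scaling, with at least 10 counts in every library, when the groups compared were fitted alone, and without siZIP7_1 replicate 2, siZIP7_2 replicate 1 or siZIP7_2 replicate 2, at values from -0.13 to -0.04.

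Replication protein A covers single-stranded DNA as a complex of 3 subunits. RPA2 was at 85.4, 87.6 and 84 CPM with siNC, at 58.7, 59 and 58 CPM with siZIP7_1 and at 46.7, 50.4 and 50.9 CPM with siZIP7_2. RPA3 was at 32.3, 31.4 and 34.6 CPM with siNC, at 26.7, 30.1 and 27.9 CPM with siZIP7_1 and at 8.69, 7.01 and 7.88 CPM with siZIP7_2. RPA2 fell with each siRNA (-0.55 ± 0.049 and -0.79 ± 0.050), and RPA3, the smallest subunit, was left at 86.1% of siNC with siZIP7_1 and at 23.9% with siZIP7_2. Its log2 fold changes were -0.22 ± 0.068 (adjusted p = 0.00615, edgeR), which was -0.16 and not called without siNC replicate 3, and -2.07 ± 0.081 (adjusted p = 2.05e-19, edgeR). RPA1, the largest subunit, fell by 0.49 and 0.98.

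Deoxynucleotide supply depends on ribonucleotide reductase (RRM1 and RRM2), thymidylate synthase (TYMS) and thymidine kinase (TK1). Summed over the 4 genes, siNC held 1012 ± 18.8 CPM, siZIP7_1 559 ± 35.3 CPM and siZIP7_2 405 ± 22.9 CPM (SD, n = 3 each). TYMS was at 297, 304 and 285 CPM with siNC, at 148, 158 and 146 CPM with siZIP7_1 and at 66.8, 84.5 and 80.4 CPM with siZIP7_2. RRM2 was at 232, 232 and 248 CPM with siNC, at 104, 122 and 99.99 CPM with siZIP7_1 and at 109, 119 and 122 CPM with siZIP7_2. The TYMS groups were separate and fell in steps (-0.97 ± 0.058 and -1.93 ± 0.061), whereas the RRM2 libraries of the siRNAs, both below siNC, overlapped (-1.12 ± 0.059 and -1.02 ± 0.059, interval of the difference -0.02 to 0.22). RRM2 was called higher with siZIP7_2 than with siZIP7_1 with either other scaling (0.13 and 0.18), with a minimum of 10 counts per library (0.15), without siZIP7_1 replicate 2 (0.18) and without siZIP7_2 replicate 1 (0.15). Another gene on the same strand overlaps 20.2% of the exonic length of RRM2. TYMS lies on chromosome 18 from 657604 to 673578 (plus strand), and ENOSF1, on the opposite strand, overlaps 46.6% of its exonic length. ENOSF1 itself was at 49.5, 60.4 and 22.7 CPM on average with siNC, siZIP7_1 and siZIP7_2. RRM1 fell by 0.48 and 1.23, and TK1 by 0.93 and 1.13.

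The G1/S regulators, which start the programme, were the role group in which the siRNAs differed most. As a sum the 5 genes were at 74.5% of siNC with siZIP7_1 and at 33.2% with siZIP7_2. E2F2 was at 15.5, 15.6 and 14.8 CPM with siNC, at 18.1, 17.1 and 16.9 CPM with siZIP7_1 and at 1.82, 2.63 and 1.42 CPM with siZIP7_2. E2F2, an activator E2F, was not called with siZIP7_1 (0.18 ± 0.088, adjusted p = 0.0668, edgeR), although its 3 libraries were above the siNC libraries, and it had the largest fall of all members with siZIP7_2, to 13% of siNC (-2.94 ± 0.13, adjusted p = 1.6e-18, edgeR). E2F2 was called higher with siZIP7_1 with upper-quartile scaling, with at least 10 counts in every library, when the groups compared were fitted alone, and without siZIP7_2 replicate 2 or siZIP7_2 replicate 3, at values of 0.19 to 0.21. E2F1 was at 114, 117 and 114 CPM with siNC, at 89.8, 84.4 and 81.7 CPM with siZIP7_1 and at 45.5, 43.8 and 46.8 CPM with siZIP7_2. E2F1 fell in steps, by 0.43 and 1.34, with separate groups.

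The E cyclins activate CDK2 at the G1/S border. CCNE2 was at 32.5, 37.5 and 41.8 CPM with siNC, at 29.8, 34.4 and 28.7 CPM with siZIP7_1 and at 4.7, 6.22 and 5.69 CPM with siZIP7_2. CCNE2 overlapped siNC with siZIP7_1, where its fall of 0.27 on the log2 scale (adjusted p = 0.004, edgeR) was -0.17 and not called without siNC replicate 3, and it was left at 14.9% with siZIP7_2 (-2.74 ± 0.10, adjusted p = 6.9e-20, edgeR). INTS8, on the opposite strand, overlaps 37.1% of the exonic length of CCNE2 and was at 32.0, 33.1 and 10.3 CPM on average in the 3 groups. CCNE1 was at 12.1, 11.6 and 11 CPM with siNC, at 5.13, 4.98 and 3.8 CPM with siZIP7_1 and at 2.17, 1.94 and 2.08 CPM with siZIP7_2. CCNE1 fell with both siRNAs, by 1.32 and 2.49, and no library of one group overlapped another. CDC25A, the phosphatase that removes the inhibitory phosphates from CDK2, fell by 0.55 and 1.35. E2F1 lies on chromosome 20 from 33675683 to 33686404 (minus strand), E2F2 on chromosome 1 from 23506430 to 23531220 (minus strand) and CCNE1 on chromosome 19 from 29811898 to 29824308 (plus strand), and CCNE2 is on chromosome 8.

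**Figure D5:**
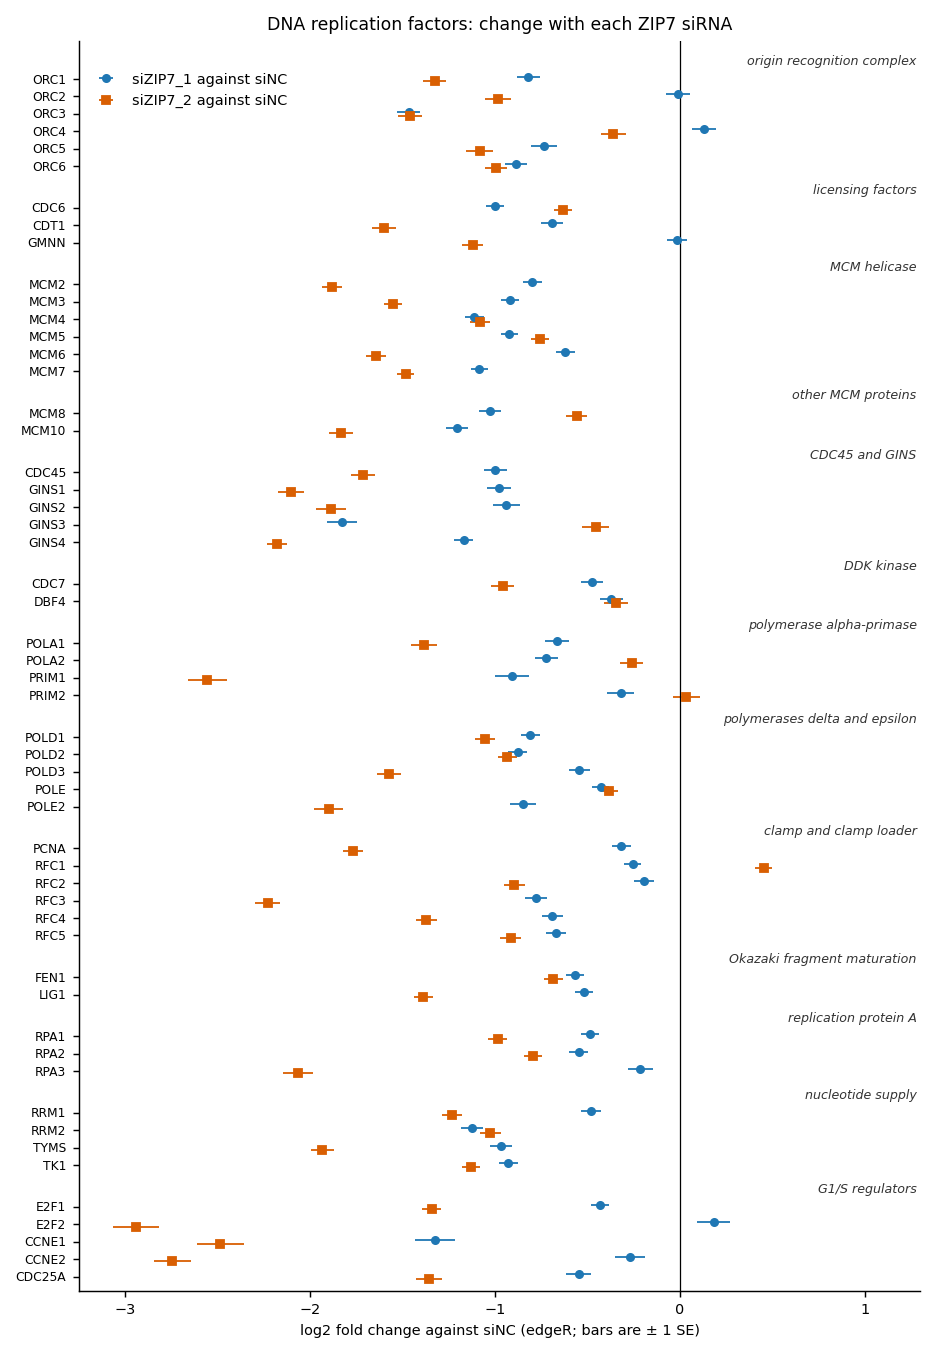
Log2 fold change against siNC (x axis) of each of the 53 members (rows, by role) with siZIP7_1 (circles) and siZIP7_2 (squares), with bars of ± 1 SE. Nearly all points lie left of 0; with siZIP7_2 the values run from -2.94 (E2F2) to 0.45 (RFC1), and with siZIP7_1 from -1.83 (GINS3) to 0.18 (E2F2).

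The siRNAs were then compared with each other directly, since a gene past the threshold with one and not the other has not been shown to differ. Of the 53 members, 39 were lower with siZIP7_2 than with siZIP7_1 (40.6% of all genes tested were), 7 were higher (38.1% were) and 7 were not called, 46 in either direction (78.7% of all genes). The median difference was -0.63, beside -0.02 over all genes. Among the 47 lowered by each siRNA, 35 were lower with siZIP7_2, 5 were lower with siZIP7_1 (CDC6, MCM5, MCM8, GINS3 and POLA2) and 7 were not called different (ORC3, ORC6, MCM4, DBF4, POLD2, POLE and RRM2), beside 1636, 953 and 901 of the 3490 genes lowered by each siRNA. Under some alternatives 4 of these 7 were called. RRM2 was higher with siZIP7_2 as given above, MCM4 with upper-quartile scaling (0.11) and POLE with upper-quartile scaling (0.13) or a minimum of 10 counts per library (0.10), and ORC6 was lower with siZIP7_2 without a low-count filter (-0.16) or without siZIP7_1 replicate 3 (-0.16). The largest differences toward siZIP7_2 were in E2F2 (-3.12 ± 0.12), CCNE2 (-2.47 ± 0.10), RPA3 (-1.85 ± 0.081) and PRIM1 (-1.65 ± 0.11), which belong to 3 role groups, and the largest the other way were in GINS3 (1.37 ± 0.083) and RFC1 (0.71 ± 0.047). The knockdown of SLC39A7 itself was deeper with siZIP7_2 by 0.89 on the log2 scale (SE 0.066). With 1 sequence for each siRNA, the depth of knockdown and other properties of an siRNA cannot be told apart.

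Further genes of the pathway were taken from lists written for this description. Their counts stand beside 35.9% of all genes called lower, 34.8% higher and 70.7% in either direction with siZIP7_1, and beside 39.3% lower, 38.5% higher and 77.8% in either direction with siZIP7_2. No difference between a list and all genes, or between lists, was tested. Of 27 accessory factors of the fork, 22 were called lower and 3 higher with siZIP7_1, and 20 lower and 1 higher with siZIP7_2. Their medians were -0.61 with each siRNA. The largest mean changes among those called with both were in MTBP (-1.79 and -1.48), which helps to fire origins, RNASEH2A (-0.98 and -1.51), a subunit of ribonuclease H2 that was near 3 CPM with siNC, and TIMELESS (-0.65 and -1.8), which protects the fork. Another gene overlaps 30.8% of the exonic length of RNASEH2A. All 9 genes of replication-coupled chromatin assembly were lower with each siRNA (medians -0.79 and -1.17). UHRF1, which guides maintenance methylation, fell by 1.02 and 2.07, NASP, a histone chaperone, by 1.25 and 1.17, and CHAF1B, a subunit of CAF-1, by 0.79 and 1.46.

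Among 13 other genes of nucleotide metabolism, 9 were lower and 3 higher with either siRNA, with medians of -0.35 and -0.92. CAD, which starts pyrimidine synthesis, fell by 0.37 with siZIP7_1 and by 2.27 with siZIP7_2. DUT, which removes dUTP, fell by 0.35 and 1.81. The CRL4-CDT2 ligase, which destroys CDT1 during S phase, had 3 of 4 genes lower with siZIP7_1 and 2 lower with siZIP7_2. Of these, DTL, its substrate receptor, fell by 1.34 and 1.53 and DDB1 by 0.16 and 0.19. Upper-quartile scaling gave -0.09 for DDB1 with siZIP7_2, no longer called.

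Regulators upstream of replication had members called in both directions. Of 16 other G1/S cyclins, kinases and inhibitors, 10 were lower and 4 higher with siZIP7_1, and 9 lower and 7 higher with siZIP7_2 (medians -0.28 and -0.24). SKP2, which targets the inhibitor CDKN1B for destruction, fell by 0.99 and 1.63, CDC25B by 0.12 and 1.83, and CCND1, cyclin D1, by 1.18 and 0.57. The fall of CDC25B with siZIP7_1 was not called without siNC replicate 1, siNC replicate 2 or siZIP7_1 replicate 3 (-0.12, -0.10 and -0.10). In the RB and E2F family, 9 of 14 were lower and 3 higher with siZIP7_1, and 10 lower and 3 higher with siZIP7_2. There MYBL2 fell by 1.52 and 1.49, the pocket protein RBL1 by 1.06 and 1.77, and the repressor E2F5 by 1.09 and 1.48. RB1 itself fell by 0.50 and 0.57. Of 9 S-phase checkpoint genes, 5 were lower and 1 higher with siZIP7_1 and 8 lower with siZIP7_2, with ATRIP at -0.54 and -1.84, PKMYT1 at -0.54 and -1.69, and the kinase CHEK1 at -0.89 and -1.08. Other genes overlap 27.9% of the exonic length of ATRIP and 31.6% of that of PKMYT1.

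Mitosis genes, which are expressed later in the cycle, gave a point of comparison. With siZIP7_1, 24 of 26 were lower, with a median of -0.68, close to the -0.72 of the replication factors. With siZIP7_2, 23 were lower and 1 higher, with a median of -0.46, whereas the median of the replication factors was -1.33. Between the siRNAs, 12 of the 26 mitosis genes were higher with siZIP7_2 and 7 lower, beside 38.1% higher and 40.6% lower over all genes, and 7 of the 53 replication factors were higher and 39 lower. AURKB fell by 0.74 and 2.21, CENPE by 1.13 and 1.27, and PLK1 by 0.71 and 1.45. The proliferation marker MKI67 fell by 0.86 and 0.37, so that it was higher with siZIP7_2 than with siZIP7_1.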

How the data were processed

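RNA-seq libraries of MDA-MB-231 cells were single reads. Each library came with a table, deposited by the authors, of raw read counts by Ensembl gene. The submitters' processing notes name Trim Galore 0.4.1, FastQC 0.11.2, STAR, HTSeq 0.6.1 and DESeq2 1.16.1, and the genome build and strand setting are not given in the sources used here. HTSeq's summary lines were left out (reads on no gene were 7.43% to 11.5% of a library, ambiguous reads 2.66% to 2.91%). Of 58395 identifiers, 58275 were in GENCODE 29 (GRCh38), which gave symbols, positions and exonic lengths.

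Counts were tested in R 4.3.3 with edgeR 4.0.16 (TMM, filterByExpr, quasi-likelihood test, Benjamini-Hochberg adjustment at 0.05), in 1 fit of 3 groups over 9 libraries with 6 residual degrees of freedom and a biological coefficient of variation of 4.5%. SE is the log2 fold change divided by the square root of F, and intervals are 95%. Lists were described by counts and medians, without a test. The members and lists were chosen with earlier results of these data known. Values per library were given for SLC39A7, for the member of each role group with the largest change with each siRNA, for members called in opposite directions, and for the markers MCM2 to MCM7, PCNA, CDC6, CDT1, CCNE1, CCNE2, E2F1, RRM2 and TYMS, with the highest and lowest 2 members by level per length, and from each further list the 3 genes with the largest mean change among those called with both siRNAs. Some genes of the marker and further lists are not reported here. MKI67 and RB1 were added after their values were seen. Chi-squared per gene was 2.50 to 6.65 between libraries within groups and at least 166 across groups, so no library held the same counts as another. Whether libraries of a group came from separate cultures cannot be read from these values. As alternatives, DESeq2 1.42.0 was run, edgeR was run with the size factors of DESeq2 or upper-quartile scaling, without a low-count filter or with a minimum of 10 counts per library, with a replicate block, with glmTreat at 1.8-fold, on the groups compared alone, and with each library left out. Promoter windows came from RefSeq (GRCh38.p14).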

Additional observations from a re-analysis of the deposited data

Results flagged for a closer look

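Genes of the replication list and the further lists whose siRNA groups moved in opposite directions are given here. Values are edgeR's log2 differences of siZIP7_2 from siZIP7_1, past the threshold in each. Among the replication factors the only such gene was RFC1, at 0.71. Of the kinase inhibitors and cyclins, CDKN1A (p21) differed by 3.46, CDKN1C (p57) by 2.92 and CCND2 (cyclin D2) by 2.84. CDKN1A was at 110.4, 119.9 and 109 CPM with siNC, at 24.9, 24.1 and 24.3 CPM with siZIP7_1 and at 281, 255 and 273 CPM with siZIP7_2. CDKN1A thus fell with siZIP7_1 and rose with siZIP7_2. CDKN1C and CCND2 had the same directions as CDKN1A. In nucleotide metabolism, TK2, the mitochondrial thymidine kinase, differed by 2.02 and DCTD by 0.440, both higher with siZIP7_2, and SAMHD1, which degrades deoxynucleotides, differed by -1.68. SAMHD1 was at 83.4, 83.7 and 82 CPM with siNC, at 180.3, 193 and 178 CPM with siZIP7_1 and at 53, 60.1 and 59 CPM with siZIP7_2. SAMHD1 was the reverse of TK2, with siZIP7_1 highest and siZIP7_2 lowest.

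In the remaining lists the atypical repressor E2F7 differed by 1.55, the pocket protein RBL2 by -0.887, the checkpoint loader RAD17 by -1.15 and the centromere histone CENPA by 1.29. E2F7 and CENPA were above siNC with siZIP7_2 and below it with siZIP7_1, and RBL2 and RAD17 the reverse. The fall of CENPA with siZIP7_1 (-0.19) was not called without siNC replicate 3 (-0.14) or siZIP7_1 replicate 1 (-0.15). In all, 11 genes of the lists are named here, of which 1 is among the 53 replication factors. The others are 3 of 13 genes of nucleotide metabolism, 3 of 16 G1/S genes and 2 of 14 in the RB and E2F family. With them stand 1 of 9 checkpoint genes and 1 of 26 mitosis genes. The accessory, chromatin assembly and CRL4-CDT2 lists, of 27, 9 and 4 genes, had 0. Of all genes tested, 18.7% were called in opposite directions. Marker genes, such as CD44 and EPCAM above, are not counted here.

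Outside the gene counts, the share of reads that fell on no annotated gene was 10.8% with siZIP7_2, above the 7.81% of the siNC libraries. What these reads are was not examined.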

How the results depend on the processing

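Of 53 members, 49 were called with siZIP7_1 and 52 with siZIP7_2. Members called higher with siZIP7_1 went from 0 to 2 (ORC4 and E2F2) with upper-quartile scaling or a minimum of 10 counts per library. With the replicate number as a block (replicate block) the counts called were again 49 and 52, with 46 between the siRNAs and 11927, 13080 and 13242 genes in all. Replicate numbers did not pair the libraries (mean correlation of same-numbered deviations 0.018, 9 pairs). Tested against a 1.8-fold change with glmTreat, 2836, 4134 and 4725 of the 16761 genes were called in the 3 comparisons. The main test called 11851, 13038 and 13187. Of the 53 members, glmTreat called 13, 38 and 17, beside 49, 52 and 46 in the main test, since a larger change was asked for. The median of the members with siZIP7_2 moved to -1.22 with upper-quartile scaling, which raised the median of all genes to 0.10, and to -1.25 with at least 10 counts in every library. It was between -1.34 and -1.25 when 1 library was left out.

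Sign changes, over the members and the other genes given with values, were limited to differences that were not called. Against siNC these were ORC2 and GMNN with siZIP7_1 (0.015 and 0.0096 with upper-quartile scaling, 0.013 and 0.0073 with a minimum of 10 counts per library) and, with siZIP7_2, PRIM2 (-0.017 without a low-count filter) and RNASEH2C (0.0097 with DESeq2's size factors, 0.084 with upper-quartile scaling, 0.052 with a minimum of 10 counts). Between the siRNAs they were DDB1 (0.0084, 0.053 and 0.025 under the same 3 settings), POLD2 and RB1 (0.024 and 0.021 with upper-quartile scaling), and ORC3, MCM4, MYBL2, DBF4 and POLE (-0.040, -0.019, -0.022, -0.025 and -0.0014 without a low-count filter). With 1 library left out, the ranges against siNC were -0.050 to 0.066 for ORC2, -0.080 to 0.020 for GMNN, -0.0092 to 0.065 for PRIM2 and -0.058 to 0.0048 for RNASEH2C. Between the siRNAs they were -0.033 to 0.052 for ORC3, -0.011 to 0.10 for MCM4, -0.0097 to 0.13 for NASP, -0.035 to 0.088 for MYBL2, -0.049 to 0.0061 for DDB1, -0.018 to 0.060 for DBF4 and -0.12 to 0.0046 for RB1. The cause was not tested. Of 4848 values of single genes, glmTreat apart, 36 lost and 38 gained a call. Precision is limited by 3 libraries in each group and, for E2F2, CCNE1 and PRIM1, by counts of under 6 CPM with siZIP7_2.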

Other observations

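Some values lay apart from those of related genes and were chosen after they were seen. RNASEH2C, a subunit of ribonuclease H2, was left at 34.6% of siNC with siZIP7_1 and was not called with siZIP7_2 (-0.02 ± 0.053), with 28.2% of its exonic length overlapped by another gene, while RNASEH2B fell by 0.67 and 0.61. CDK2 was not called with siZIP7_1 (0.09 ± 0.048), save as higher with upper-quartile scaling (0.12), a minimum of 10 counts per library (0.12) or without siNC replicate 1 (0.13), and fell by 1.2 with siZIP7_2, and CDK6 fell by 1.39 with siZIP7_1 and by 0.17 with siZIP7_2, a call lost with upper-quartile scaling (-0.07), a minimum of 10 counts per library (-0.10) or without siZIP7_2 replicate 1 (-0.11). The fork proteins CLSPN, TIMELESS and TIPIN fell by 1.84, 1.8 and 1.67 with siZIP7_2, and by 0.59, 0.65 and 0.45 with siZIP7_1.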
